A study of Drosophila melanogaster with 3 samples.

Results

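The genes described here are 10 abundant housekeeping genes of Drosophila melanogaster: Fer1HCH and Fer2LCH (ferritin), Act5C and alphaTub84B (cytoskeleton), 14-3-3epsilon and 14-3-3zeta, Rack1, Ubi-p63E (ubiquitin), and His2Av and His3.3B (histone variants). They are 10 of the 18277 annotated genes, picked by symbol because each was already known to have a peak near a transcription start site (TSS) in these same lists. Their peaks were selected on the measured values: a peak counts when its summit lies within 500 bp of any annotated TSS of the gene. By that rule they hold 10 of the 4187 peaks that passed the irreproducible discovery rate (IDR) step, since Fer1HCH and Fer2LCH share 1 and 14-3-3zeta has 2. The presence of a peak at each gene is therefore a description and carries no test.

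The study was chromatin immunoprecipitation with sequencing (ChIP-seq) of the CG12219 protein. Flies of the transgenic line stably express CG12219 as a fusion whose C-terminal end is green fluorescent protein (GFP, eGFP in 1 label). Whole embryos of pooled sex, aged 0 to 18 h, were used. There were 3 biological replicates, all of 1 group, with no second condition, so no gene below rose or fell. Whole embryos mix all cell types, and a stronger peak in all cells cannot be told apart from a peak in more of them. A free-text label calls each sample an input control, whereas the assay, antibody and peak list labels describe immunoprecipitated chromatin, and the samples are treated as such. Embryos without the tag, or a mock precipitation, enter no comparison here. Sequencing depth is unknown, and peaks are compared by rank of the authors' signal within a list, where rank 1 is the strongest.

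Housekeeping genes are transcribed in nearly all cells. In flies many of their promoters start transcription over a spread of positions and carry elements such as the DNA replication-related element (DRE) or motif 1, while a TATA box is more typical of regulated genes. Ribosomal protein genes, the largest housekeeping group, start at a pyrimidine-rich element called the TCT initiator. The label that set the 10 genes outside the ribosome needs 1 reservation: Rack1 encodes a scaffold protein that sits on the small ribosomal subunit, though it is not named as a ribosomal protein.

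The sequences at 6 of the summits are shown because they hold the base composition and motif matches that the comparisons below turn on. They were read from the RefSeq genome of the dm6 build, 5′ to 3′ on the strand of the named gene. Each is the stretch within 100 bp of the summit that lies outside exons of protein-coding genes, with at most 10 exon bases at each end. Where a summit lay in a 5′ UTR beside a motif, 30 bases around that motif are shown instead. Capitals mark exact motif matches on either strand. The ferritin stretch (chr3R:30388429-30388589, plus strand) has the summit at base 101 and no match. The upstream Rack1 stretch (chr2L:7827306-7827339, minus strand) has a DRE match at bases 19 to 26, over the outer Rack1 TSS at base 25. The inner Rack1 stretch (chr2L:7827225-7827254, minus strand) has its TSS at base 9, a TCT initiator match at bases 13 to 18 and the summit at base 16. The alphaTub84B stretch (chr3R:7086523-7086608, plus strand) has a TATA match at bases 52 to 57 and the TSS at base 77. The Ubi-p63E stretch (chr3L:3902665-3902694, minus strand) has a TATA match at bases 13 to 18, over the summit at base 16. The His2Av stretch (chr3R:26866646-26866785, plus strand) has a match to the motif 7 core at bases 63 to 69 and one to the TCT letters at bases 98 to 103, both on the opposite strand. The 14-3-3epsilon stretch (chr3R:18242150-18242284, plus strand) has a motif 1 core match at bases 5 to 13, over the TSS of the neighbouring gene CG7156 at base 10.
Fer2LCH and Fer1HCH: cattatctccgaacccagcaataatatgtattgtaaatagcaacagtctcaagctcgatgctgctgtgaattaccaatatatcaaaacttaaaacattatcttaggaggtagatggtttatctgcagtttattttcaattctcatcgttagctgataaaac
Rack1, outer start site: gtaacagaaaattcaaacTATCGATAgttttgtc
Rack1, inner start site: accggaactgccTCTTTTtctgccagcttg
alphaTub84B: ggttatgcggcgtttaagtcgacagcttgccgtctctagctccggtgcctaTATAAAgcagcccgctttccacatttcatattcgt
Ubi-p63E: acaccgaaggtaTATAAAcagcgttcgcga
His2Av: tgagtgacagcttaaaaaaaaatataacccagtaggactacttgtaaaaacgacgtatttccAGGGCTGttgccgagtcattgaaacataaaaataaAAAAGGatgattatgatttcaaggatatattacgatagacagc
14-3-3epsilon: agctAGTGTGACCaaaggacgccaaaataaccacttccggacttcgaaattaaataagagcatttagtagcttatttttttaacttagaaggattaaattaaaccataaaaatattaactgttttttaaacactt

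All 10 genes had an IDR summit within 500 bp of a TSS, which is how they were chosen, against 1996 of all 13968 protein-coding genes (14.3%). Genes with more annotated start sites have more chances of a summit. Among the 10269 protein-coding genes with 1 TSS the background was 9.79%, and alphaTub84B and His2Av fall there. Among the 3699 genes with 2 or more TSS it was 26.8%, and the other 8 genes fall there. In the pooled list of 30000 calls at any rank, all 10 genes had a call, against 44.8% of protein-coding genes. That count was fixed by the choice of the genes, since every IDR peak is also a pooled call. The summits ranked from 321 to 3667, with a median of 2275.5, against 2001.5 for all 1682 IDR summits within 500 bp of a protein-coding TSS. Of the 10 genes, 5 (Fer1HCH, Fer2LCH, Rack1, Act5C and His2Av) had a summit among the 2093 strongest IDR peaks, against 7.84% of protein-coding genes. Counted over summits, 4 of the 10 (40%) were among those 2093, against 52.0% of all summits at a protein-coding TSS.

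The IDR step and the choice of the genes both used the replicate lists, so the replicate values describe each summit and do not support it independently. Each replicate list was compared through its 4187 strongest calls, the number of IDR peaks. By that measure 7 of the 10 genes had a strong call within 500 bp of a TSS in all 3 replicates, against 9.04% of protein-coding genes. Since the genes were chosen for having a summit, other summits are the closer comparison: 6 of the 10 summits (60%) had a matched strong call in all 3 replicates, against 58.4% of all summits at a protein-coding TSS and 85.3% of ribosomal protein summits. In the count of genes the exceptions were Act5C in replicate 3, His3.3B in replicate 1 and 14-3-3epsilon in replicate 2, so each replicate missed 1 gene. In the count of summits they were those of His3.3B and 14-3-3epsilon and both summits of 14-3-3zeta. Act5C is among the 6 summits only through a call in replicate 3 that belongs to a different summit, 203 bp away. For each summit the nearest call within 250 bp in each replicate was then matched to it. The ratio of the highest to the lowest replicate rank had a median of 2.35 over the 10 summits, against 2.14 over all summits at a protein-coding TSS. Without Act5C, whose match in replicate 3 is a different summit 203 bp away, the median was 2.13. Ubi-p63E had a ratio of 1.43, which rests on a replicate 2 call 125 bp away, and Rack1 one of 3.90. The ratio of 6.57 for Act5C rests on that match, and its replicates 1 and 2 alone gave 2.27. Summits whose ranks lie within such a ratio of each other are not ordered by these data.

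**Figure D1:**
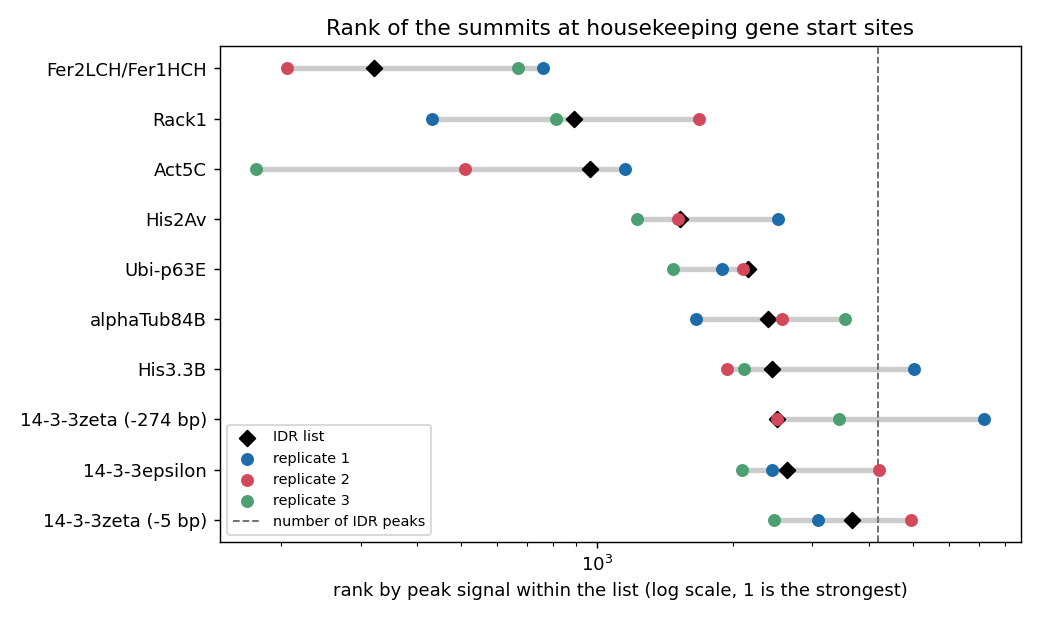
Rank of each housekeeping gene summit by peak signal within the IDR list (diamonds) and within replicates 1 to 3 (circles), on a log scale with the strongest to the left. Grey bars span the 3 replicates and the dashed line marks rank 4187. The shared ferritin summit leads in the IDR list at rank 321, and 4 summits have a replicate to the right of the line.

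By IDR rank the strongest of these summits lay beside the divergent start sites of the ferritin genes. Fer1HCH (FBgn0015222, the heavy chain homologue, which oxidises iron for storage) and Fer2LCH (FBgn0015221, the light chain homologue) run in opposite directions on 3R. Their start sites nearest to the summit are 98 bp apart. The peak covered chr3R:30388434-30388701 in dm6, with its summit at 30388529, rank 321 and a signal of 777.679 in the authors' units. That summit lay 253 bp downstream of a Fer2LCH TSS, in an intron of Fer2LCH, and 351 bp upstream of the outermost Fer1HCH TSS. It ranked 760, 206 and 668 in replicates 1, 2 and 3, a ratio of 3.69 between the highest and the lowest. Replicate 1 placed Rack1 above it, at 432, while replicates 2 and 3 placed Rack1 below it, at 1684 and 814. These ranks do not order the 2 summits. Replicate 2 placed the ferritin summit highest and 84 bp away, and divided it into 2 calls, whose ranks were 206 and 2723. Since 1 peak served both genes, the data do not assign it to either.

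Of the other 9 genes in a list of iron genes, 2 had an IDR summit at a TSS. Irp-1A, an iron regulatory protein of the aconitase family, had one at rank 2306, 18 bp upstream of the TSS, with ranks of 6762, 1848 and 5561 in replicates 1, 2 and 3. Tsf3, a transferrin, had one at rank 4096, 82 bp upstream of its TSS and shared with CG15706. Fer3HCH, Irp-1B, Tsf1, Tsf2, Mvl, mfrn and fh had none.

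Act5C (FBgn0000042), the cytoplasmic actin used in most cells, had a pair of summits upstream, and the 500 bp limit fell between them. Just inside the limit was the counted summit at chrX:5900388, 473 bp upstream of the TSS and outside the gene, with rank 965 and a signal of 422.518. Just outside it was a stronger one, 676 bp upstream, with rank 264. The summits are 203 bp apart. The outer summit ranked 281, 362 and 176 in replicates 1, 2 and 3. The inner one ranked 1157 in replicate 1 and 510 in replicate 2, and the nearest call of replicate 3 was the outer summit, at rank 176. Within 500 bp of an Act5C TSS, replicate 3 had no call stronger than rank 13527, at 26 bp downstream. Both summits were nearer to a noncoding gene, lncRNA:CR45668, at 399 bp upstream of its TSS for the inner summit and 196 bp for the outer.

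None of the 5 other actin genes (Act42A, Act57B, Act79B, Act87E and Act88F) had an IDR summit at a TSS, and 2 of them had a call in the pooled list, at rank 6676 for Act87E and 15283 for Act42A. Among 10 genes for actin-binding proteins and myosin, 3 had an IDR summit. They were sqh, the regulatory light chain of nonmuscle myosin, at rank 802, Tm1, a tropomyosin, at rank 2722, and Arp3, of the actin-nucleating Arp2/3 complex, at rank 3742 and shared with msk. The other 7 were chic, tsr, cpa, cpb, Tm2, zip and Arp2.

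alphaTub84B (FBgn0003884), the alpha-tubulin used in most cells, had a summit at chr3R:7086623, 24 bp downstream of its only annotated TSS and in the 5′ UTR. Its rank was 2396, with 1661, 2563 and 3542 in replicates 1, 2 and 3, all within the strongest 4187 calls. No other gene starts within 500 bp. Of the 9 other tubulin genes only gammaTub23C, a gamma-tubulin of microtubule-organising centres, had an IDR summit, at rank 1295, 151 bp upstream of the TSS and shared with Rrp1. The paralogue alphaTub84D had no call in the pooled list near a TSS, nor had alphaTub85E, alphaTub67C or betaTub85D. The other 4, betaTub56D, betaTub60D, betaTub97EF and gammaTub37C, had a pooled call only, at ranks from 4791 for betaTub56D to 10493 for betaTub97EF. The alphaTub84B and alphaTub84D coding sequences are nearly identical, so placement of reads inside those genes may be uncertain.

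The fly has 2 genes for 14-3-3 proteins, which bind phosphorylated serine and threonine on many partners, and both had summits of modest rank. 14-3-3zeta (FBgn0004907) was the only one of the 10 with 2 IDR summits at its start sites. Among all protein-coding genes 1.25% had 2 or more. Since the 10 were chosen for having a summit, the closer base is the 1996 protein-coding genes with any, of which 174 had 2 or more. The 14-3-3zeta summits are 4169 bp apart, at different start sites of the 4 annotated. The inner one lay in an intron, 274 bp upstream of the fourth TSS, at rank 2499, with ranks of 7193, 2499 and 3430 in replicates 1, 2 and 3. The outer one lay 5 bp upstream of the first TSS, at rank 3667, with ranks of 3087, 4964 and 2463. Each of the pair fell past rank 4187 in 1 replicate, replicate 1 for the inner and replicate 2 for the outer. The outer summit was also 82 bp upstream of RpLP0-like, a gene named for its likeness to a ribosomal protein, whose TSS is 87 bp from that of 14-3-3zeta.

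14-3-3epsilon (FBgn0020238) had a summit at chr3R:18242184, 347 bp upstream of its TSS, at rank 2630. It ranked 2441, 4207 and 2099 in replicates 1, 2 and 3, so replicate 2 fell just past 4187. It was far closer to CG7156, a gene known by its annotation number, 25 bp upstream of that gene's TSS. By nearest start site it would be given to CG7156, and the motif 1 core match in the sequence above overlaps that TSS as well.

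Rack1 (FBgn0020618) had a summit at chr2L:7827239, 7 bp downstream of the inner of its 2 start sites and in the 5′ UTR, at rank 888 with a signal of 441.314. It ranked 432, 1684 and 814 in replicates 1, 2 and 3, and had the lowest A+T of the 10 summits, 42.6% within 50 bp. The summit was also 411 bp upstream of mts, the catalytic subunit of protein phosphatase 2A, whose TSS is 404 bp away in the opposite direction. A further IDR summit at rank 2906 lay 1082 bp upstream of Rack1 in an intron of mts, outside the 500 bp limit. The summit whose replicate ranks were most like those of Rack1, out of 1607 summits at protein-coding start sites of other genes, was that of RpL17, a protein of the large ribosomal subunit. It ranked 474, 1776 and 922, and the absolute log2 rank differences from Rack1 summed to 0.39 over the 3 replicates. By the same measure the ferritin summit was nearest to one shared by Dp1, an RNA-binding protein, and imd, an adaptor of innate immune signalling, with ranks of 809, 247 and 601 and a sum of 0.50. For Act5C no such gene is named, since its matched call in replicate 3 belongs to another summit.

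Ubi-p63E (FBgn0003943) encodes polyubiquitin, a chain of ubiquitin units cut apart after translation. Its summit at chr3L:3902679 lay in the 5′ UTR, 41 bp upstream of an internal start site, at rank 2155. It ranked 1890, 2108 and 1476 in replicates 1, 2 and 3, the narrowest spread of the 10, and no other gene starts within 500 bp. The matched call of replicate 2 was 125 bp away, at 3902804, between this summit and a weaker pooled call at 3902886 (rank 13384). The narrow spread therefore rests on a match that may belong to either. Ubiquitin units repeat along the coding sequence, where reads may be placed at more than 1 unit, but the summit lay outside it.

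Of 9 other genes for ubiquitin, its relatives and its enzymes, 4 had an IDR summit, beside the 14.3% of all protein-coding genes. RpS27A, which encodes ubiquitin fused to a protein of the small ribosomal subunit, had one at rank 1810, 13 bp downstream of its TSS and shared with Ip259. It had no matched call in replicate 3. The conjugating enzymes ben, at rank 2276, and eff, at rank 3355, had theirs 169 and 184 bp upstream. Usp5, a deubiquitinating enzyme, had one at rank 2341, shared with BtbVII, with ranks of 1507, 2018 and 2559 in replicates 1, 2 and 3. Ubi-p5E, RpL40, Uba1, Nedd8 and Sumo had none.

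His2Av (FBgn0001197), the fly counterpart of the variants H2A.Z and H2A.X, had a summit at chr3R:26866705, 224 bp upstream of its only TSS, at rank 1527. It ranked 2521, 1512 and 1225 in replicates 1, 2 and 3, all within the strongest 4187. It lay closer to ball, 80 bp upstream of a TSS of that gene, which encodes a kinase of histones and is transcribed in the opposite direction. His3.3B (FBgn0004828), 1 of 2 genes for the replacement histone H3.3, had a summit at chrX:9155275, in an intron and 263 bp upstream of the innermost TSS, at rank 2439. It ranked 5031, 1939 and 2113 in replicates 1, 2 and 3. His3.3A, which encodes the same protein, had no call in the pooled list within 500 bp of a TSS, and neither had His4r, cid or BigH1. Of 8 genes for chaperones and remodellers of histone variants, only yem, a partner of the H3.3 chaperone Hira, had an IDR summit, at rank 2383 and shared with Ctl2. The other 7 were dom, YL-1, Tip60, Hira, XNP, asf1 and Dek.

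**Figure D2:**
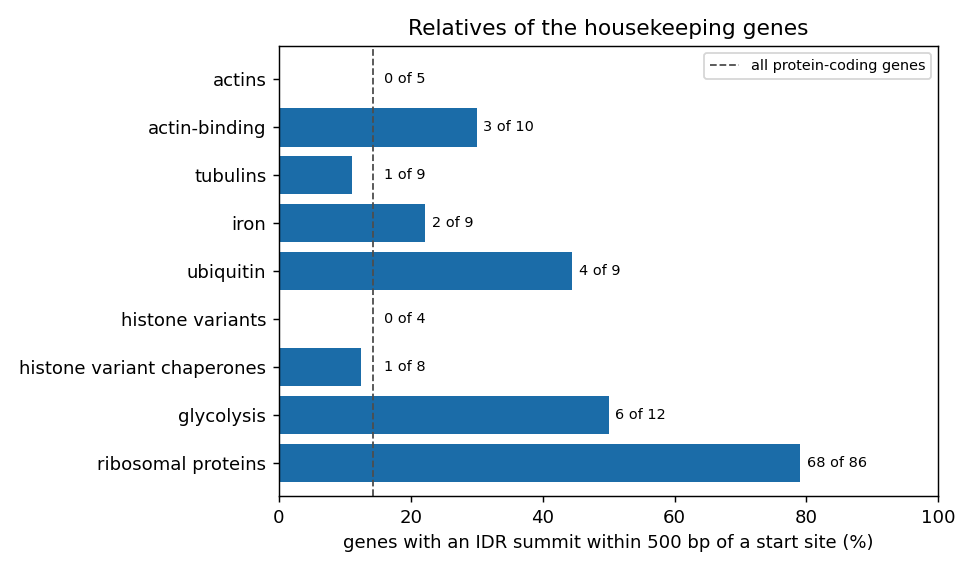
Percent of genes in each list of relatives with an IDR summit within 500 bp of a TSS, leaving out the 10 housekeeping genes. The number of genes is beside each bar and the dashed line marks the 14.3% of all protein-coding genes. Ribosomal proteins stand at 68 of 86, while the other actins and histone variants stand at 0.

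Over the lists other than glycolysis and ribosomal proteins, 11 of the 54 genes beside the chosen ones had an IDR summit (20.4%). Without RpS27A and RpL40, which also encode ribosomal proteins, 10 of 52 had one (19.2%). For these counts and the glycolytic one below, the share over all protein-coding genes was 14.3%. Over protein-coding genes with 2 or more TSS it was 26.8%. Of 12 genes for glycolytic enzymes, set beside them as another abundant housekeeping group, 6 had one: Gapdh2 at rank 20, Hex-A at 102, Eno at 212, Ldh at 346, Pgk at 1157 and Tpi at 2227. The 6 without one were Pgi, Pfk, Ald1, Gapdh1, Pglym78 and PyK.

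The position of the summit varied widely between the 10 genes. Measured to a TSS of the gene itself, 4 of the 10 summits lay within 50 bp (Rack1, alphaTub84B, Ubi-p63E and the outer summit of 14-3-3zeta) and the other 6 lay over 200 bp away, with a median distance of 238.5 bp. Measured instead to the nearest TSS of any protein-coding gene, 5 of the 10 lay within 50 bp, 1 between 50 and 200 bp and 4 over 200 bp away. The change comes from 14-3-3epsilon, 25 bp from CG7156, and His2Av, 80 bp from ball. By that nearest TSS, 57 of the 68 summits at ribosomal protein genes (83.8%) lay within 50 bp and 1 (1.47%) over 200 bp away. Over all 1682 summits at a protein-coding TSS, 306 (18.2%) lay within 50 bp and 550 (32.7%) over 200 bp away. The median distance to the nearest protein-coding TSS was 60.5 bp for the housekeeping summits, 18 bp for the ribosomal protein summits and 137 bp for all. By the same measure 7 of the 10 summits lay upstream, beside 1271 of 1682 (75.6%). These are counts over a few chosen genes, with no test.

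**Figure D3:**
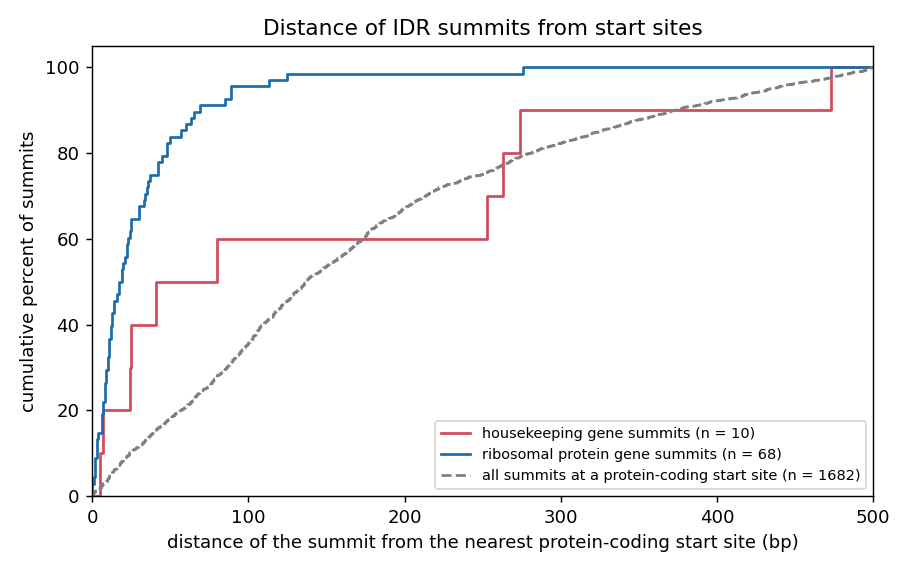
Cumulative percent of IDR summits by distance in bp from the nearest TSS of any protein-coding gene, for the 10 housekeeping gene summits, the 68 summits at ribosomal protein genes and all 1682 summits at a protein-coding TSS. By 50 bp the housekeeping line stands at 50%, the ribosomal protein line at 83.8% and the line for all summits at 18.2%.

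At 5 of the 10 summits every replicate's matched call lay within 50 bp of the IDR summit. The exceptions were replicate 1 for the inner 14-3-3zeta summit (118 bp), replicate 2 for ferritin (84 bp), His3.3B (86 bp) and Ubi-p63E (125 bp), and replicate 3 for Act5C (203 bp). Of the 27 annotated start sites of the 10 genes, 15 had an IDR summit within 500 bp and 23 had a pooled call. Start sites with a pooled call only included the second TSS of Act5C, at rank 7762, and the outermost TSS of His3.3B, at rank 8180.

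**Figure D4:**
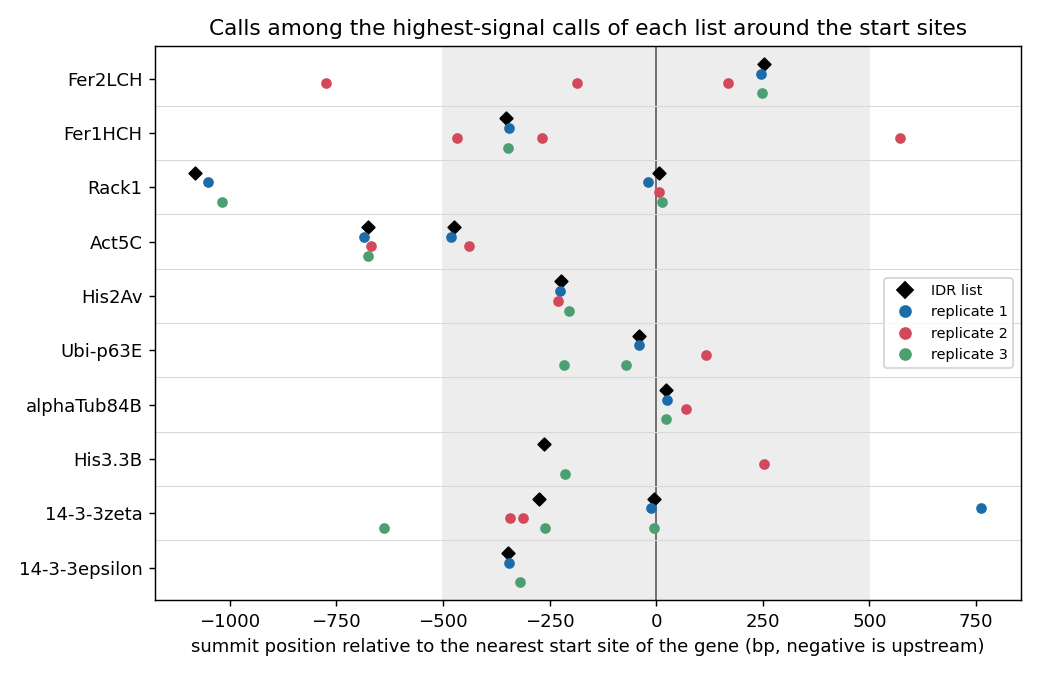
Summits among the strongest 4187 calls of the IDR list (diamonds) and of replicates 1 to 3 (circles), by distance in bp from the nearest TSS of the gene, negative upstream. The 500 bp window is shaded. The Act5C pair straddles its edge at 473 and 676 bp upstream, and alphaTub84B calls cluster at the TSS.

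The summit was shared with the start site of another protein-coding gene at 6 of the 10 genes (60%), against 957 of the 1996 protein-coding genes with a summit (47.9%) and 29 of the 68 ribosomal protein genes (42.6%). These 6 are Fer1HCH and Fer2LCH with each other, Rack1 with mts, His2Av with ball, 14-3-3zeta with RpLP0-like and 14-3-3epsilon with CG7156. For His2Av and 14-3-3epsilon the neighbour was the nearer gene. Act5C shared its summit with a noncoding gene. Only alphaTub84B, Ubi-p63E, His3.3B and the inner 14-3-3zeta summit had no further gene within 500 bp.

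Base composition at the summits ran from 42.6% A+T at Rack1 to 79.2% at the inner 14-3-3zeta summit, in the 101 bases centred on the summit. The median was 64.4% for the 10 summits, against 53.5% for ribosomal protein genes and 65.3% for all summits at a protein-coding TSS. The 4 summits within 50 bp of a TSS of their own gene were also the 4 with A+T under 60%: Rack1 at 42.6%, the outer 14-3-3zeta summit at 48.5%, alphaTub84B at 54.5% and Ubi-p63E at 56.4%. The other 6 lay between 61.4% at Act5C and 79.2%. The line of 60% was drawn between these values after they were seen.

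The replicates differed in step with composition. Among all strong calls the mean A+T was 61.0% in replicate 1, 66.6% in replicate 2 and 63.9% in replicate 3. All 4 housekeeping summits under 60% A+T ranked weaker in replicate 2 than in replicate 1, and 5 of the 6 above 60% ranked stronger, with 14-3-3epsilon as the exception. Some of these differences lie within the ratio between replicates given above, such as 1890 to 2108 at Ubi-p63E and 2521 to 1512 at His2Av. Others were larger, such as 432 to 1684 at Rack1. Since the line of 60% was drawn from these same summits, this split is a description. Over 1617 summits at a protein-coding TSS matched in all replicates, A+T and the log2 ratio of the rank in replicate 2 to that in replicate 1 had a Spearman correlation of -0.53, given as a description, since all points share the same libraries. The median log2 ratio was -0.29 for the 10 summits, against 0.79 in the 433 summits with the lowest A+T and -0.85 in the 458 with the highest. Replicate 2 was the weakest of the 3 for 4 of the 10 summits, for 56 of 65 ribosomal protein summits (86.2%) and for 500 of 1617 overall (30.9%). What part library preparation had in these ranks was not tested.

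**Figure D5:**
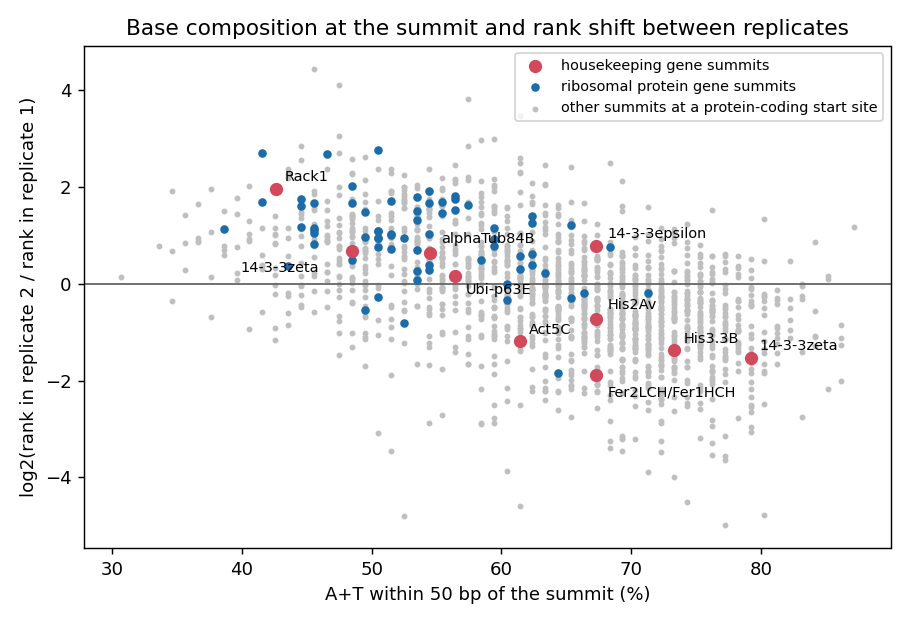
Percent A+T within 50 bp of the summit against the log2 ratio of its rank in replicate 2 to its rank in replicate 1, above 0 where replicate 2 ranked it weaker. Points are housekeeping gene summits (red), ribosomal protein gene summits (blue) and others at a protein-coding TSS (grey). Rack1 lies among the ribosomal protein points at 42.6% A+T, and 5 summits above 60% lie below 0.

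No motif was common to the summits. Exact letters were searched on both strands within 100 bp of each summit. The TATA letters (TATAAA) matched at 5 of the 10 (Rack1, Ubi-p63E, alphaTub84B, His3.3B and the inner 14-3-3zeta summit), against 20.6% of ribosomal protein summits and 33.5% of all summits at a protein-coding TSS. No distance from a TSS was required, so these letters need not be a TATA box. The TCT letters (CCTTTC or CCTTTT, or these 2 with a T in place of the opening base) matched at 3, namely Rack1, His2Av and the inner 14-3-3zeta summit, against 94.1% of ribosomal protein summits and 47.4% of all. DRE (TATCGATA) matched at Rack1 only, against 25.0% of ribosomal protein summits and 3.75% of all. The motif 1 core (GGTCACACT) matched at 14-3-3epsilon only, against 11.8% of ribosomal protein summits and 2.08% of all. The GAGA element (the letters GAGAG) matched at ferritin and alphaTub84B, against 8.82% of ribosomal protein summits and 27.2% of all. An E-box (CAGCTG) matched at Act5C only, against 7.35% of ribosomal protein summits and 11.4% of all. The motif 7 core (CATCNCT or CAGCNCT) matched at His2Av only, against 33.8% of ribosomal protein summits and 21.7% of all. The outer 14-3-3zeta summit held none of the 7. Some of these matches lie outside the stretches shown above. A match describes letters and not a bound factor.

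The Rack1 summit lay within 50 bp of a TSS, ranked among the first 1000 and held the DRE, TCT and TATA letters within 100 bp. These traits were put together after the values were seen, and the DRE match was lost within 50 bp. How many other summits hold all of them was not counted. For comparison, ribosomal protein summits had a median distance of 18 bp, a median A+T of 53.5% and a median rank of 1029. Of those summits 25.0% held the DRE letters, 94.1% the TCT letters and 20.6% the TATA letters.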

How the data were processed

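Peak lists were analysed for 3 biological replicates, with a pooled list and an IDR list of the whole series. Coordinates are dm6 per the labels, while the aligner, the caller and the IDR cut-off are not given by any source used. Each replicate list and the pooled list hold 30000 calls, background calls included, per the listing deposited beside them. The signal per peak is the authors' deposited value, with no normalization stated, and served only for ranking calls of the same list. The −log10 q-value the authors deposited reached its maximum in 3872 IDR peaks and only broke ties. All 4187 IDR peaks were found, with equal values, as the strongest pooled calls. No call was equal in any 2 replicates. Depth is unknown, so no interval could be given.

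Start sites came from Ensembl release 115 (BDGP 6.54), without transposable elements, on 7 chromosomes. Summits are the deposited offsets, counted from 1. Matching was checked on simulated summits. Python 3.11.15, numpy 2.4.6, pandas 2.3.3 and matplotlib 3.10.9 were used. The 10 genes, the lists of relatives and the motifs were chosen with earlier results of these data known, so values are descriptions without tests. The 3 older symbols (IRP-1A, IRP-1B, smt3) were matched as Irp-1A, Irp-1B and Sumo. Genes named are the 10, the genes that share a summit with one, every gene of each list of relatives except ribosomal proteins, and the gene nearest in replicate ranks to each of the 3 strongest summits, left out for Act5C. Alternatives changed the window, the TSS set, the gene assignment, the number of strong calls, the match distance and the base window, and left out each replicate.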

Additional observations from a re-analysis of the deposited data

How the results depend on the processing

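The count of genes with a summit depends on how near is near. All 10 genes met the 500 bp limit, but only 5 had an IDR summit within 250 bp, 6 were the nearest gene to theirs, 5 had one among the 2093 strongest peaks, and 4 had a TSS inside the peak interval. With 1000 bp all 10 had one, and with the outermost TSS of each gene 7 had. The 7 genes with a strong call in all 3 replicates became 3 when the number of strong calls was halved and 9 when it was doubled. Leaving out replicates 1, 2 and 3 in turn gave 8 each time. Matching to a call within 250 bp of the IDR summit, an alternative added after seeing the data, gave 7, but not the same 7 genes. The only gene with 2 IDR summits dropped out, since neither summit had a matched strong call in all 3 replicates. Act5C entered, only through the replicate 3 call that belongs to its outer summit, 203 bp away. The equal count is therefore no sign of a stable set. The median offset of -132.5 bp became -224 bp from outermost start sites, and the median A+T of 64.4% became 58.2% in the 30 bp each side of the summit and 63.2% in 100 bp. Within 50 bp of the summit TATA matched at 3 summits, GAGA at 1, and DRE and the E-box at 0. Narrower windows hold fewer positions, and the cause of these changes was not tested. Of the settings not yet named, a 250 bp window left 5 genes with a strong call in all 3 replicates and 8 with a pooled call, and a match within 100 bp left 3 summits weakest in replicate 2 in place of 4. No paired analysis was possible because there is 1 group.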
